A study of Mus musculus with 24 samples.

Results

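Lipodystrophic mice that received FGF21 were compared with lipodystrophic mice that received vehicle, by RNA-seq of liver. The comparison holds 14 of the 24 liver libraries of the study, chosen by their labels alone: 8 from FGF21-treated and 6 from vehicle-treated Lmna ADKO mice, called KO below. All animals were labelled female, were on a C57BL/6J background, and carried Lmna fl/fl alleles with exons 10 and 11 between loxP sites. KO mice also carried Adipoq-Cre, whose promoter is active in adipocytes and in marrow adipogenic progenitors, and Cre-negative controls with the same floxed alleles are called WT below. Mice were 12 to 14 weeks old at the start, were kept at 22°C, and ate a diet with 60% of energy from fat for 4 weeks before a retro-orbital injection of AAV8 encoding mouse FGF21 or of vehicle without virus. Livers were collected 8 weeks later. The vehicle held no virus, so an effect of FGF21 and an effect of the AAV itself cannot be told apart. Of the remaining libraries, 3 came from FGF21-treated and 7 from vehicle-treated WT mice. WT vehicle library 6 went against its label at Xist, the RNA of the inactive X chromosome. It held 0.0486 CPM (a gene's count scaled to the size of its library), against 159 to 349 CPM in every other library. Cux2, a gene higher in female liver, was at 74 CPM in that library, within the 32.4 to 76.6 CPM of the other WT vehicle libraries. Whether the label is wrong was not tested, and the number of genes called is given with and without that library.

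FGF21 is a hormone of the fibroblast growth factor family that the liver releases during fasting and metabolic stress. It acts through FGF receptors bound to the co-receptor β-Klotho, encoded by Klb, and the receptors signal mainly through the ERK pathway. In lipodystrophy the body lacks adipocytes to store triacylglycerol, and the liver becomes fatty and insulin resistant. FGF21 is known for effects on fatty acid oxidation, lipid synthesis and insulin sensitivity.

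The 14 KO libraries held 19863304 to 21510054 counts each over 23972 genes. The libraries were numbered within each group, and 2 of the FGF21 group stood apart. On the first principal component of the 12532 genes whose log2 CPM averaged at least 0, FGF21 library 7 lay at 69.8 (29.2% of the variance), whereas the other 13 lay between -15.2 and 11.1. The same library had a slope of log2 level on log2 transcript length of -0.331, against -0.109 to 0.0830 in the others. FGF21 library 3 lay at -29.9 on the second component, which held 24.9% of the variance, beyond the lowest vehicle library at -24.9, and 6 FGF21 libraries lay between 8.19 and 29.8. Vehicle library 4 lay at 12.1, among the FGF21 libraries. Counts of called genes are therefore given with and without FGF21 libraries 3 and 7, which were singled out with the results known, and counts of list members with all libraries and without each of the pair. Because these are bulk samples, fewer cells of a type and less RNA per cell cannot be told apart.

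**Figure D1:**
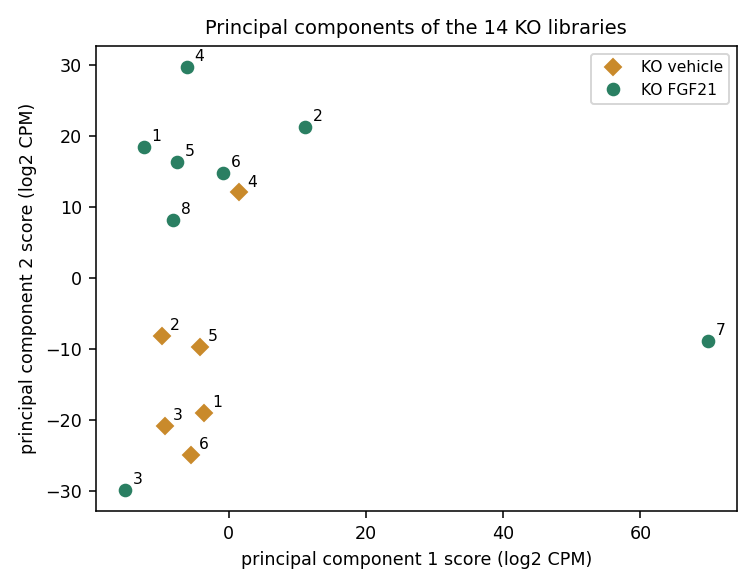
Scores of the 14 KO libraries on the first and second principal components of log2 CPM; circles are FGF21 libraries, diamonds vehicle libraries, and numbers name the library in its group. Library 7 of the FGF21 group stood alone on the first component, at 69.8, and library 3 lay at the vehicle end of the second, at -29.9.

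With all libraries, no gene passed the test between FGF21 and vehicle in KO liver. At an adjusted p under 0.05 and a fold above 1.5 in either direction, edgeR's quasi-likelihood test called 0 of 23972 genes (0%), and the smallest adjusted p was 0.331. At an unadjusted p under 0.05 the test gave 1608 genes (6.71%), of which 867 were higher (3.62%) and 741 lower (3.09%) with FGF21. DESeq2 on the same libraries called 15 genes (0.0626%), 7 higher (0.0292%) and 8 lower (0.0334%), and on the 14 KO libraries alone 20 genes (0.0845%). The 15 were Sorbs3, Zfp3, Cyp27a1, Ang, Cux2, Gm28959 and a second Chtf8 entry among the higher genes and Klhdc7a, Hebp2, Lamb3, Gm4956, Slc6a16, Gm47428 and the ferritin pseudogenes Ftl1-ps1 and Ftl2-ps among the lower ones. Of these, 11 were also among the 61 genes that edgeR called without FGF21 library 3, described below (73.3% of the 15 and 18% of the 61).

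The 8 FGF21 and 6 vehicle libraries did not overlap at 14 of the 12532 genes above the level filter (0.112%), 4 higher (0.0319%) and 10 lower (0.0798%) with FGF21. The gene with the largest difference among them was Cyp17a1, which encodes a steroid hydroxylase and lyase. Its level was 101 CPM at the lowest, 156 at the median and 276 at the highest with FGF21, against 61.4, 76.1 and 96.0 with vehicle, a log2 fold change of 1.03 ± 0.29 (SE) with an edgeR adjusted p of 0.567. All FGF21 libraries, 3 and 7 included, stood above all vehicle libraries. Rd3, Zfp949 and Cactin were the other genes without overlap that were higher. Among those lower, Ugdh, which makes UDP-glucuronic acid for glucuronidation and for matrix polysaccharides, ranged from 86.2 to 172 CPM around a median of 133 with FGF21 and from 179 to 202 CPM around 192 with vehicle. FGF21 library 3, at 171 CPM, lay just under the vehicle range. Vnn1, a pantetheinase and a target of PPARα, had a median of 146 CPM (118 to 166) with FGF21 and 193 CPM (170 to 215) with vehicle. Tusc3, a subunit of the oligosaccharyltransferase complex, Prps2, which makes the nucleotide precursor PRPP, and CT025731.4 were also lower without overlap.

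Without FGF21 library 3, 61 genes were called (0.254%), 21 of them higher (0.0876%) and 40 lower (0.167%) with FGF21. Leaving out any other single KO library, library 7 included, left 0 calls, while the genes at an unadjusted p under 0.05 were 1834 (7.65%) without library 7 and 2606 (10.9%) without library 3. Without both libraries 164 genes were called (0.684%), 52 higher (0.217%) and 112 lower (0.467%). Of the 61 genes, 60 were also called without both (98.4% of the 61 and 36.6% of the 164). Genes without overlap numbered 134 without library 3 (1.07%), 37 without library 7 (0.295%) and 348 without both (2.78%).

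**Figure D2:**
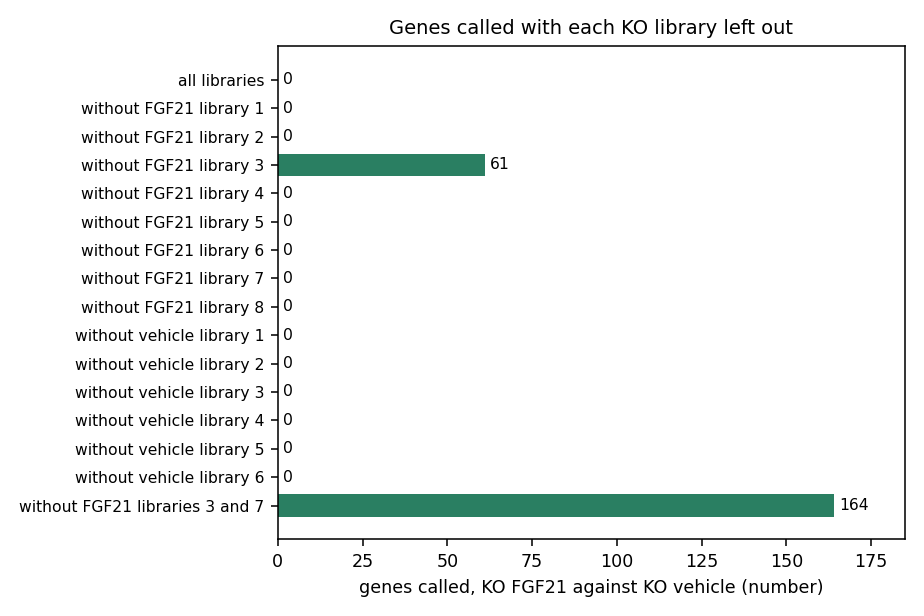
Number of genes called between FGF21 and vehicle in KO liver with all libraries, with each of the 14 KO libraries left out in turn, and with FGF21 libraries 3 and 7 left out. The bar reached 61 genes without library 3 and 164 without both, and stood at 0 otherwise.

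The 61 genes were called when library 3 was left out and were not when it was included, so its position at them is largely set by that choice and is given as a description. At 57 of the 61 its log2 CPM was nearer to the vehicle mean than to the mean of the other 7 FGF21 libraries, at 38 it lay within the vehicle range, and at 53 it lay on the far side of the vehicle mean from the other FGF21 libraries. The sign of the fold change with all libraries was the same at all 61, and 59 of them had an unadjusted p under 0.05 with all libraries. At the 164 genes called without both libraries, library 3 was nearer to the vehicle mean at 159 and library 7 at 101.

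**Figure D3:**
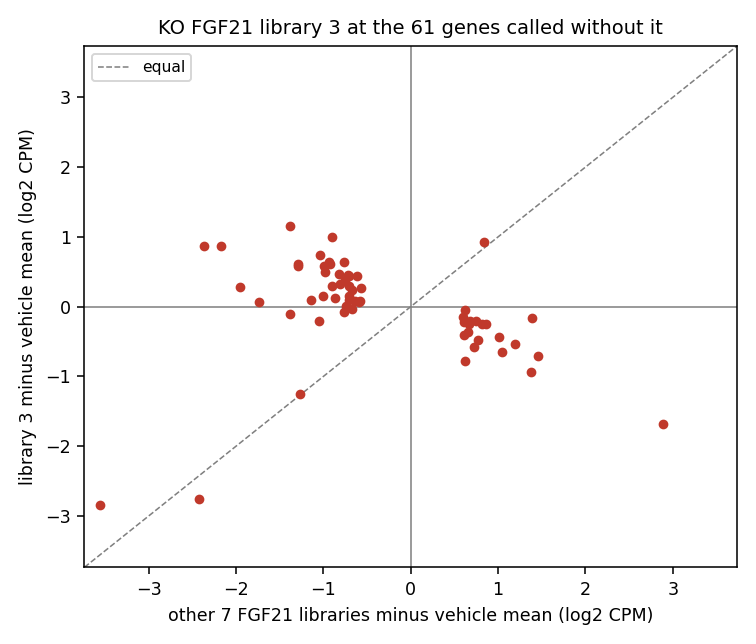
Each point is 1 of the 61 genes called without FGF21 library 3; the horizontal axis is the mean of the other 7 FGF21 libraries minus the vehicle mean and the vertical axis is library 3 minus the vehicle mean, both in log2 CPM. At 53 genes the point lies in a quadrant of opposite signs, and the dashed line marks equal differences.

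The gene with the smallest adjusted p without library 3 was Klhdc7a (ENSMUSG00000078234, GRCm38 chr4:139960220-139968026), which encodes a protein with kelch repeats. With FGF21 its level was 14.3 CPM at the lowest, 21.9 at the median and 43.9 at the highest, and with vehicle it was 31.3, 41.1 and 45.3 CPM. The highest FGF21 value was that of library 3, and the other 7 lay under every vehicle library. In WT vehicle livers Klhdc7a was at 41.6 to 70.25 CPM around a median of 56.0 CPM, so the treated KO median lay further from WT. The log2 fold change was -0.80 ± 0.17 with all libraries (edgeR adjusted p = 0.331), -1.0003 ± 0.12 without library 3 (adjusted p = 0.000218) and -0.74 without library 7 (adjusted p = 0.325).

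Hebp2 (chr10:18539498-18546076), a heme-binding protein gene, showed the same order of libraries at a low level. FGF21 libraries ranged from 0.453 to 2.86 CPM around a median of 0.820 and vehicle libraries from 1.94 to 4.19 CPM around 2.66. Library 3 was again the highest of its group, and the other 7 lay under the vehicle range. In WT vehicle livers Hebp2 was at 0 to 0.414 CPM around a median of 0.234 CPM. The log2 fold change was -1.43 ± 0.33 with all libraries and -1.86 ± 0.27 without library 3 (edgeR adjusted p = 0.00163). Limk1, a kinase that acts on the actin regulator cofilin, was at 3.35, 4.82 and 13.7 CPM with FGF21 and 6.13, 8.56 and 11.7 CPM with vehicle. Library 3 stood above all vehicle libraries at Limk1, and the log2 fold change without it was -0.97 ± 0.14 (edgeR adjusted p = 0.00163). Akap2, Paqr7, Ugt2b35 and Tmem43 were lower as well, with log2 fold changes without library 3 between -0.76 and -0.67 and adjusted p between 0.00665 and 0.0112. Ugt2b35 is a UDP-glucuronosyltransferase, Akap2 an anchoring protein for protein kinase A and Paqr7 a membrane progestin receptor. Abcg2, an efflux transporter, was called lower without library 3, and Ermp1, a membrane metallopeptidase, only without both libraries, where their log2 fold changes were -0.80 and -0.64.

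Gm4956 was among the 8 lower genes with the smallest p, and its fold hardly moved without library 3, although the edgeR call needed that library to be left out. Its level was 0.442 to 1.70 CPM around a median of 0.716 with FGF21 and 1.17 to 3.47 CPM around 1.97 with vehicle. Its log2 fold change was -1.36 with all libraries (edgeR adjusted p = 0.331), -1.35 without library 3 (adjusted p = 0.0438) and -1.56 without library 7 (adjusted p = 0.0976). A ferritin light chain pseudogene, Ftl1-ps1, had the largest fold among the lower genes named by p, at -2.76 ± 0.61, and this rested on vehicle libraries 1 and 3. Those held 1002 and 879 CPM, against 39.1 to 87.1 CPM in the FGF21 libraries and 49.5 to 62.3 in the other 4 vehicle libraries. Ftl2-ps held 421 and 454 CPM in the same pair and at most 0.368 CPM in the other KO libraries. Ftl1, the gene they resemble, held 2169 and 2142 CPM in that pair and 2898 to 7554 CPM in the other 12. How reads were split among these near-identical copies was not tested, and their values are uncertain for that reason. Without vehicle libraries 1 and 3 the direction at Ftl2-ps turned.

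Among the higher genes, Sorbs3 (ENSMUSG00000022091, chr14:70180468-70211989), which encodes the cell adhesion adaptor vinexin, had the smallest adjusted p. It was at 19.9 CPM at the lowest, 56.5 at the median and 62.5 at the highest with FGF21, and at 21.4, 27.7 and 33.2 CPM with vehicle. Library 3 held the lowest value of all 14 and the other 7 FGF21 libraries lay above every vehicle library. The log2 fold change was 0.89 ± 0.19 with all libraries (edgeR adjusted p = 0.331) and 1.01 ± 0.14 without library 3 (adjusted p = 0.000757). WT vehicle livers held 58.6 to 92.3 CPM around a median of 68.2 CPM.

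Cyp27a1 (ENSMUSG00000026170, chr1:74713574-74737892), the mitochondrial sterol hydroxylase of bile acid synthesis, was at 217, 386 and 516 CPM with FGF21 and 194, 243 and 349 CPM with vehicle. Apart from library 3, which held the lowest value of its group, every FGF21 library exceeded every vehicle library. In WT vehicle livers Cyp27a1 was at 271 to 433 CPM around a median of 316 CPM, below the treated KO median. The log2 fold change was 0.65 ± 0.15 (edgeR adjusted p = 0.388) and, without library 3, 0.74 ± 0.13 (adjusted p = 0.0109). Gne, the first enzyme of sialic acid synthesis, was at 107, 197 and 221 CPM against 104, 128 and 163 CPM, with 7 of 8 FGF21 libraries above the vehicle range. Zfp3 was an exception to the role of library 3, since library 3 held 1.66 CPM, within the other FGF21 values of 1.21 to 1.76 CPM and above the vehicle range of 0.648 to 1.25 CPM. Its log2 fold change was 0.89 with all libraries and 0.88 without library 3 (edgeR adjusted p = 0.0344). Lmbr1l, Nrbp2, Glt1d1 and Izumo4 completed the 8 higher genes with the smallest p, with log2 fold changes of 0.49 to 0.75 with all libraries and adjusted p under 0.05 without library 3 in each.

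Cux2 (chr5:121856366-122050102), a homeobox transcription factor known in mouse liver for its higher level in females, had the largest fold of the genes called higher and was named after its values were seen. The FGF21 libraries 1 to 8 held 23.3, 11.9, 0.373, 16.1, 19.3, 19.1, 0.646 and 17.8 CPM. The vehicle libraries ranged from 0.417 to 5.16 CPM around a median of 1.59, and WT vehicle libraries from 32.4 to 76.6 CPM. Thus 6 FGF21 libraries stood above all vehicle libraries, and libraries 3 and 7 stood within the vehicle values or below them. The log2 fold change was 2.67 ± 0.70 with all libraries, 2.86 ± 0.60 without library 3 (edgeR adjusted p = 0.0435) and 3.07 without both (adjusted p = 0.0033).

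**Figure D4:**
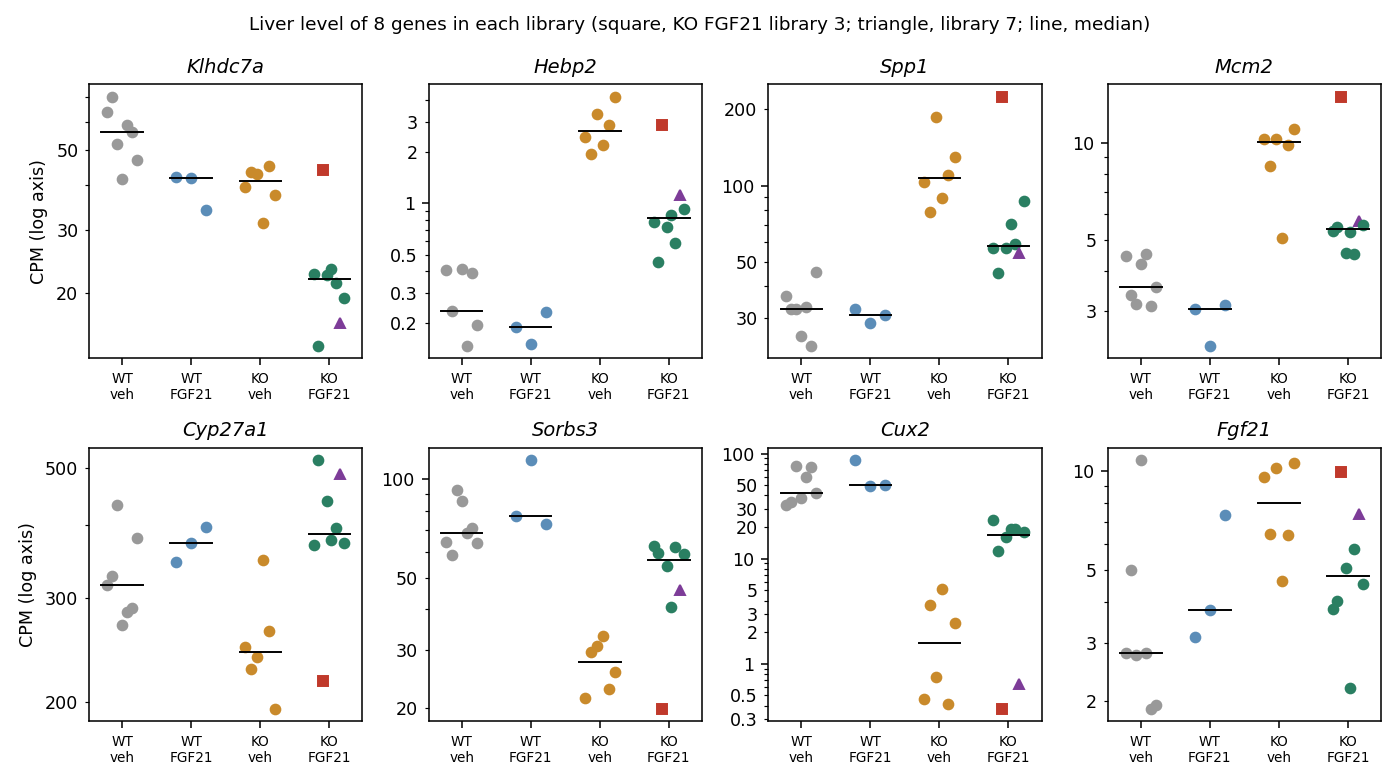
CPM on a log axis of 8 genes in every library of the 4 groups; squares mark KO FGF21 library 3, triangles library 7, and lines the group median. At Klhdc7a, Hebp2, Spp1, Mcm2, Cyp27a1, Sorbs3 and Cux2 the square lies with or beyond the KO vehicle points, and the Fgf21 level of the treated KO libraries overlaps that of the vehicle libraries.

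Rnase4 and Ang, which encode secreted ribonucleases of the angiogenin family, overlap on the plus strand of chromosome 14 (51091077-51106151 and 51091150-51102009) and have in RefSeq a promoter window in common. Ang was at 40.6, 182 and 279 CPM with FGF21 and 48.3, 64.5 and 117 CPM with vehicle, and Rnase4 at 280, 888 and 1167 CPM against 336, 393 and 816 CPM. At both genes library 3 was the lowest of all 14. Their log2 fold changes without library 3 were 1.46 ± 0.27 (edgeR adjusted p = 0.0235) and 0.99 ± 0.18 (adjusted p = 0.0112). Reads of the overlapping exons could be assigned to either gene, so their values are not independent.

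The promoter window is shown for 3 cases in which the edgeR call needed library 3 to be left out. These are a higher gene, the higher pair described above and a lower gene. Windows run from 250 bases before to 50 bases after the RefSeq start on GRCm38.p6. Rnase4 had 2 such windows, of which the first is shown. The start of Ang given above, 51091150, lies after the end of that window. Capitals mark matches to the CCAAT box (CCAAT) or the nuclear receptor core motif (AGGTCA), searched on both strands along with the STAT palindrome (TTCNNNGAA) and the AP-1 motif (TGANTCA), which had no match in these windows. The Cyp27a1 window is chr1:74713285-74713584 on the plus strand, the one of Rnase4 and Ang chr14:51090827-51091126 on the plus strand, and that of Mcm2, a subunit of the replicative helicase, chr6:88898731-88899030 on the minus strand.
Cyp27a1: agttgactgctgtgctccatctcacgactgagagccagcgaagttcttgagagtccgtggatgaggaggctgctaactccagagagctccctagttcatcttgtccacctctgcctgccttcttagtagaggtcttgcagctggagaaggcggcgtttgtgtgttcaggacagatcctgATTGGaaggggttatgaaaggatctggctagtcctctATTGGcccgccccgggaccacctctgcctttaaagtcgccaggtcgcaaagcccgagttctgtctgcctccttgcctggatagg
Rnase4 and Ang: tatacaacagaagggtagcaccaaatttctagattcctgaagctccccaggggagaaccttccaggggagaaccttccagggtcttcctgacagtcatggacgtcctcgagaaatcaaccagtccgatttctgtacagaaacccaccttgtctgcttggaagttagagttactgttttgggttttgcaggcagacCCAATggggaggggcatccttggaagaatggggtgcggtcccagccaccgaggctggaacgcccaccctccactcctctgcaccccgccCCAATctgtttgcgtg
Mcm2: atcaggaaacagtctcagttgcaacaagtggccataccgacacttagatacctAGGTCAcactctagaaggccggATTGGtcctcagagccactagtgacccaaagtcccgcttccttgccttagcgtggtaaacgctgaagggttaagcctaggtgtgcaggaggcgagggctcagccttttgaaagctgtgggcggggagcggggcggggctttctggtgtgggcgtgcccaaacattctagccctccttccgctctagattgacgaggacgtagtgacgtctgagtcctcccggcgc

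A CCAAT box stood in all 3 windows shown. The window of Klhdc7a, whose edgeR call also needed library 3 to be left out, was searched too. It held no match to any of the motifs and is not shown. Of the 21 genes called higher without library 3, 13 matched the promoter table by symbol, with 24 windows in all, as a gene can have several starts. A CCAAT box stood in 37.5% of those windows, in 27.1% of the 48 windows of the 29 matched genes among the 40 called lower, and in 36.9% of the 18114 windows of all 14337 genes that matched. Counted per gene, with at least 1 window, the shares were 69.2%, 34.5% and 41.6%, and genes with more windows have more chances to hold one. Per window, the nuclear receptor core motif had shares of 16.7%, 22.9% and 14.4% in the same order, the AP-1 motif 8.3%, 6.2% and 6.1%, and the STAT palindrome 0%, 4.2% and 7.2%. These matches are descriptions of letters and were not tested.

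The hormone and its receptors came first among the gene groups, since the treatment was given as a vector. Liver Fgf21 was at 2.19, 4.81 and 9.995 CPM with FGF21 and 4.63, 8.04 and 10.6 CPM with vehicle. The groups overlapped, 4 of the 8 treated values lay below the vehicle range, and the log2 fold change was -0.58 ± 0.37 (edgeR adjusted p = 0.73). Whether a vector transcript would be counted under the mouse gene is not given in the sources used here, so the level does not check the treatment label. Klb was at 20.1 to 43.0 CPM with FGF21 and 25.8 to 32.1 CPM with vehicle, with a log2 fold change of 0.16 ± 0.13, and Fgfr4, the main FGF receptor of hepatocytes, had 0.16 ± 0.09. Fgfr1, Fgfr2 and Fgfr3 lay between -0.07 and 0.03. Of the 6 genes 0 passed at an unadjusted p under 0.05 in either direction with all libraries or without library 7, and 1 was higher and 1 lower without library 3. Of 17 ERK feedback and immediate early genes above the level filter, 0 passed at an unadjusted p under 0.05 with all libraries, 1 was lower without library 3 and 2 were higher without library 7, and the median log2 fold change was -0.03. Etv5, a transcription factor induced by ERK, had the smallest p of them, with 0.29 ± 0.15. Liver Lmna, which the Cre does not target in hepatocytes, was at 19.6 to 33.7 CPM against 23.6 to 31.0 CPM.

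The lists of genes below were put together with earlier results of these data known, several of them after themes the study drew from these same samples, so their direction is not independent evidence. Counts at an unadjusted p are over the members above the level filter, and counts of called members are those of edgeR over the whole list. Of all 23972 genes, edgeR called 0% with all libraries, 0.254% without library 3, 0% without library 7 and 0.684% without both. Beside each count stand 4.41% of the 12532 genes above the level filter that were higher and 3.63% that were lower at an unadjusted p under 0.05 with all libraries, 7.05% and 7.13% without library 3, 5.61% and 4.29% without library 7, and a median log2 fold change of 0.01 over all these genes.

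Genes of amino acid breakdown and the urea cycle were higher with FGF21 in 24 of 25 cases, with a median log2 fold change of 0.34. The groups overlapped. The mean log2 level of these genes relative to all KO libraries ran from -0.51 to 0.44 with FGF21 and -0.45 to 0.26 with vehicle. With all libraries 10 were higher and 0 lower at an unadjusted p under 0.05, and these were 15 and 0 without library 3, with a median of 0.41, and 12 and 0 without library 7. None was called with all libraries or without either library alone, and 3 were called without both. Got1, the cytosolic aspartate aminotransferase, was at 101, 310 and 542 CPM with FGF21 and 93.7, 110 and 273 CPM with vehicle. Its 2 lowest treated values were libraries 3 and 7, and its log2 fold change was 1.10 ± 0.34 with all libraries (edgeR adjusted p = 0.619) and 1.36 without both (adjusted p = 0.0297). Hpd, of tyrosine breakdown, was at 879, 2238 and 3094 CPM against 847, 1378 and 1949 CPM, and Cps1, which makes carbamoyl phosphate for the urea cycle, at 869, 1774 and 2005 CPM against 823, 1025 and 1651 CPM. Library 3 held the lowest treated value at Hpd and Cps1 too. Bcat2, which transaminates branched-chain amino acids, was above the vehicle range in 7 of 8 FGF21 libraries.

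Fibrosis and matrix genes were lower in 25 of 28 cases, with a median log2 fold change of -0.29 with all libraries, -0.47 without library 3, -0.31 without library 7 and -0.52 without both. The groups overlapped. The mean log2 level of these genes relative to all KO libraries ran from -0.58 to 0.71 with FGF21 and -0.22 to 0.52 with vehicle. At an unadjusted p under 0.05 with all libraries 0 were higher and 6 lower, without library 3 these were 0 and 14, and without library 7 they were 1 and 6. No member was called by edgeR with all libraries, whereas DESeq2 called Lamb3 (adjusted p = 0.0258), and edgeR called Lamb3, Tnc, Tgfb2 and Col27a1 lower without library 3. Tgfb2 lay under the level filter. Lamb3, a laminin chain of epithelial basement membranes, was at 11.5, 17.4 and 40.8 CPM with FGF21 and 19.8, 43.0 and 94.5 CPM with vehicle. Library 3 held the highest treated value, 6 treated libraries lay under the vehicle range, and the log2 fold change without library 3 was -1.55 ± 0.30 (edgeR adjusted p = 0.03). Tnc, the matrix glycoprotein tenascin C, was at 2.16, 2.56 and 4.19 CPM against 2.87, 4.45 and 6.20 CPM. Tgfb2, a TGF-β ligand, was at 0.201, 0.376 and 1.49 CPM against 0.406, 1.02 and 1.63 CPM. Col27a1, a fibrillar collagen, had a log2 fold change of -0.84 ± 0.18 without library 3. Col1a1, the main fibrillar collagen of scar, was not called in any of these fits. It was at 4.84, 13.2 and 59.9 CPM with FGF21, the highest being library 3, and 12.8, 22.6 and 39.9 CPM with vehicle. Tgfbr2 was at 30.1 to 49.9 CPM against 28.4 to 38.2 CPM.

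Markers of cholangiocytes, the bile duct cells, were summed beside the fibrosis genes, and most of the sum came from Spp1. The sum of all 8 was 60.3, 76.1 and 257 CPM with FGF21 and 98.9, 128 and 207 CPM with vehicle, and each was detected. Without Spp1, a sum chosen after seeing the data, the other 7 held 15.4, 17.8 and 32.8 CPM against 16.02, 21.02 and 22.6 CPM, the groups overlapped, and 0 of the 7 passed at an unadjusted p under 0.05 with all libraries or without library 3. Library 3 held the highest value of all 14 in both sums. Over 14 libraries the log2 sum of all 8 markers differed by -0.55 (exact two-sided permutation test, p = 0.0979, adjusted over 13 measures 0.53) and without library 3 by -0.76 (adjusted p = 0.0303, exact permutation). The second p cannot be read at face value, since library 3 was left out with the results known and is extreme in this sum. Spp1, the secreted phosphoprotein osteopontin and one of those markers, was at 44.9, 57.5 and 224 CPM against 78.7, 107 and 186 CPM, with library 3 the highest and 6 treated libraries under the vehicle range. Its log2 fold change was -0.51 ± 0.29 with all libraries and -0.93 ± 0.17 without library 3 (edgeR adjusted p = 0.0187). The part of the cholangiocyte markers in the fibrosis values was not tested. Stellate cell markers, the cells that make most liver collagen, summed to 481 to 618 CPM with FGF21 and 446 to 578 CPM with vehicle.

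Few cell cycle genes passed even an unadjusted test with all libraries, and their medians lay below 0. Of 18 mitosis genes above the level filter 18 had a log2 fold change below 0, with a median of -0.35 with all libraries and -0.58 without library 3. At an unadjusted p under 0.05 0 were higher and 1 lower with all libraries and without library 7, against 0 and 9 without library 3. The groups overlapped, since the mean log2 level of these genes relative to all KO libraries ran from -0.71 to 0.95 with FGF21 and from -0.59 to 0.96 with vehicle. Mad2l1, of the spindle checkpoint, was the 1 gene called, without both libraries. S phase genes had a log2 fold change below 0 in 18 of 21 cases, with a median of -0.17, and with 0 higher and 2 lower at an unadjusted p under 0.05, against 0 and 9 without library 3 and 0 and 1 without library 7. Their mean log2 level overlapped as well, at -0.39 to 0.59 with FGF21 and -0.38 to 0.31 with vehicle. Mcm2 was at 4.52, 5.41 and 13.8 CPM with FGF21 and 5.06, 10.04 and 10.98 CPM with vehicle. Library 3 held the highest value of all 14, vehicle library 4 the value of 5.06 CPM, and without library 3 the log2 fold change was -0.82 ± 0.14 (edgeR adjusted p = 0.01). Mcm6, of the same helicase, was called without both libraries only. Cdc20 and Prc1, of mitotic exit and the central spindle, had 3.73 and 2.45 CPM in library 3, above all other FGF21 libraries.

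Interferon response genes were higher in 28 of 30 cases, with a median log2 fold change of 0.24 that was 0.28 without library 3 and 0.22 without library 7. The groups overlapped. The mean log2 level of these genes relative to all KO libraries ran from -0.25 to 0.31 with FGF21 and -0.29 to 0.16 with vehicle. At an unadjusted p under 0.05 13 were higher and 1 lower with all libraries, 16 and 0 without library 3, and 8 and 0 without library 7. None was called in any of these fits. Nlrc5, an activator of MHC class I genes, was at 11.6, 18.4 and 19.95 CPM with FGF21 and 10.7, 12.3 and 15.01 CPM with vehicle. Isg15, a ubiquitin-like modifier, was at 10.9, 12.9 and 17.5 CPM against 8.81, 9.97 and 11.7 CPM, and Irf7, an interferon regulatory factor, at 45.2, 66.6 and 101 CPM against 40.1, 44.9 and 64.8 CPM. Library 7 held the highest value at Isg15 and Irf7, and the groups overlapped at all 3. Lymphocyte markers summed to 18.8 to 31.2 CPM with FGF21 and 19.9 to 37.8 CPM with vehicle, and Kupffer cell and macrophage markers to 639 to 1210 CPM against 600 to 1004 CPM, library 7 having the highest.

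Among 8 genes of the growth hormone axis, 3 were higher and 0 lower at an unadjusted p under 0.05 with all libraries and without library 7, and 4 and 0 without library 3. Values above 0 were found at 4 of the 8 with all libraries, 6 without library 3 and 5 without library 7, and the median log2 fold change was 0.21. Socs2, a feedback inhibitor of growth hormone signalling, was at 3.19, 17.0 and 34.3 CPM with FGF21 and 4.35, 5.59 and 16.4 CPM with vehicle. Library 3 held the lowest value of all 14 and vehicle library 4 the highest of its group. The log2 fold change was 1.34 ± 0.42 with all libraries (edgeR adjusted p = 0.638) and 1.60 without both (adjusted p = 0.0377). Igf1 was at 119, 253 and 337 CPM against 133, 183 and 221 CPM, and Igfals, which stabilises circulating IGF, at 35.2, 86.7 and 95.6 CPM against 35.7, 61.7 and 77.7 CPM.

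Lipid genes differed by pathway. Sterol synthesis genes were higher in 20 of 25 cases, with a median log2 fold change of 0.33. The groups overlapped. The mean log2 level of these genes relative to all KO libraries ran from -0.23 to 0.51 with FGF21 and -0.95 to 0.41 with vehicle. At an unadjusted p under 0.05 3 were higher and 0 lower with all libraries, 6 and 0 without library 3 and 5 and 0 without library 7, and none was called in any of these fits. Ebp, a sterol isomerase, was at 116, 227 and 273 CPM with FGF21 and 128, 157 and 208 CPM with vehicle, library 3 being the lowest of all 14. Lipogenesis genes had a median of 0.06, and of 19 genes 2 were higher and 0 lower at an unadjusted p under 0.05 with all libraries and without library 7, against 2 and 4 without library 3. Fads1, a desaturase, was at 495 to 964 CPM against 363 to 598 CPM, and Elovl6, an elongase, at 28.6 to 143 CPM against 73.3 to 110 CPM, with library 3 the highest. Fatty acid oxidation and ketogenesis genes had a median of -0.07, and 0 of 20 passed at an unadjusted p under 0.05 in either direction with all libraries or without either one. Ppargc1a, the coactivator PGC-1α, was at 5.56 to 10.6 CPM against 3.97 to 16.3 CPM.

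Lipid droplet and uptake genes were lower in 11 of 15 cases, with a median log2 fold change of -0.22, and 1 higher and 4 lower at an unadjusted p under 0.05, against 1 and 6 without library 3 and also without library 7. The groups overlapped. The mean log2 level of these genes relative to all KO libraries ran from -0.47 to 0.38 with FGF21 and -0.13 to 0.47 with vehicle. Cd36, a fatty acid uptake receptor, was at 211, 253 and 345 CPM with FGF21 and 312, 350 and 386 CPM with vehicle. Library 3 was the only treated library within the vehicle range, and the log2 fold change was -0.41 ± 0.14 (edgeR adjusted p = 0.66). Cidea and Cidec, which fuse lipid droplets, were called lower without both libraries. Cidec was at 12.8, 42.4 and 162 CPM against 67.4, 111 and 160 CPM, and Cidea at 0.755, 2.96 and 28.4 CPM against 5.6, 19.6 and 50.4 CPM. Libraries 3 and 7 held the highest treated values at both genes. Pnpla2, the triacylglycerol lipase ATGL, went the other way, at 95.4, 142 and 173 CPM against 84.5, 113 and 125 CPM, with 7 of 8 treated libraries above the vehicle range.

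**Figure D5:**
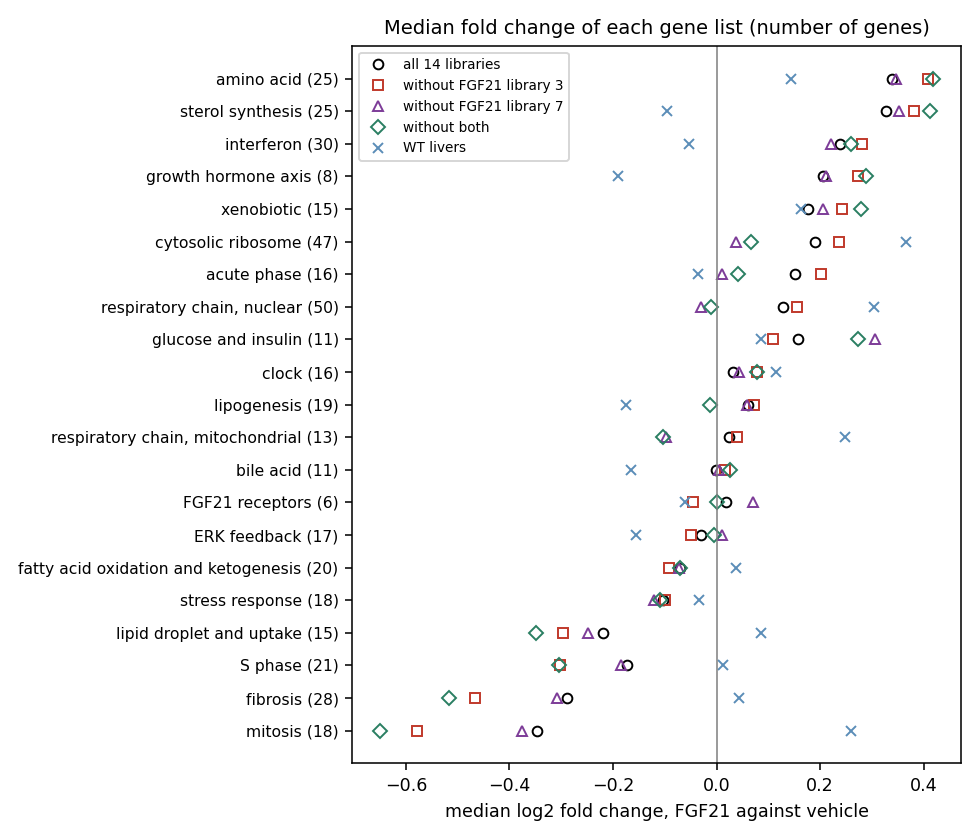
Median log2 fold change of FGF21 against vehicle in each of the 21 gene lists, the number of genes above the level filter in parentheses, with all 14 KO libraries, without FGF21 library 3, without library 7, without both, and in WT livers. Mitosis, fibrosis and S phase lists lie below 0 and amino acid and sterol synthesis lists above 0 in KO liver in all 4 settings.

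Of 11 glucose and insulin genes 2 were higher and 1 lower at an unadjusted p under 0.05 with all libraries, 3 and 2 without library 3, and 3 and 1 without library 7. Igfbp2, an IGF-binding protein, was at 31.9, 135 and 165 CPM with FGF21 and 23.5, 58.8 and 113 CPM with vehicle, and Irs2, an insulin receptor substrate, at 9.21, 16.7 and 24.3 CPM against 7.56, 11.8 and 13.1 CPM. Bile acid genes had a median log2 fold change of 0.00, and 2 of 11 were higher at an unadjusted p under 0.05, Cyp27a1 and the uptake transporter Slc10a1, against 3 without library 3 and 2 without library 7. Xenobiotic genes had a median of 0.18, and of 15 genes 1, Cyp2c29, was higher at an unadjusted p under 0.05 with all libraries and without library 7, and 3 without library 3. Acute phase genes had a median of 0.15 that was 0.01 without library 7 and 0.04 without both, and of 16 genes 0 passed at an unadjusted p under 0.05 with all libraries, 4 were higher without library 3 and 1 without library 7. Clock genes had a median of 0.03, with 1 of 16 higher in each of these fits, which was Cry2 with all libraries. Stress response genes had a median of -0.10, with 0 higher and 1 lower of 18 with all libraries and without library 7, and 0 and 2 without library 3. The 1 lower gene with all libraries was Dnajb9, an ER chaperone partner, with a log2 fold change of -0.37. Asns, asparagine synthetase, had -1.16 and an unadjusted p of 0.0189 but lay under the level filter.

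Genes of the respiratory chain and ribosome moved with library 7. Nuclear respiratory chain genes had a median log2 fold change of 0.13 with all libraries and -0.03 without library 7, and 0 of 50 passed at an unadjusted p under 0.05. Mitochondrially encoded genes had 0.02 and -0.10, with 0 of 13, and 1 lower without library 7, and cytosolic ribosome genes 0.19 and 0.04, with 0 of 47. Ndufs8, a complex I subunit, held 197 CPM in library 7, against 62.2 to 95.7 CPM in the other treated libraries and 66.5 to 82.2 CPM with vehicle. Library 7 also held 9.005% of its counts on mitochondrial genes, against 5.21 to 6.81% in the other 13. Erythroid markers summed to 1203, 3400 and 7475 CPM with FGF21 and 709, 1003 and 3760 CPM with vehicle, library 7 being the highest, a log2 difference of 1.35 (exact two-sided permutation test, p = 0.04, adjusted over 13 measures 0.519). Hepatocyte markers summed to 74739 to 152788 CPM against 75947 to 112944 CPM, with the 9 in the table all detected. Sinusoidal endothelial markers summed to 307 to 405 CPM against 303 to 375 CPM, neutrophil markers to 4.47 to 14.03 CPM against 4.87 to 8.66 CPM, pancreatic acinar markers to 6.14 to 13.4 CPM against 5.90 to 9.14 CPM and the adipocyte list, which holds the liver gene Pck1, to 1349 to 4240 CPM against 1466 to 3095 CPM. The part of library composition in the values above was not tested.

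In WT livers FGF21 against vehicle gave 13 called genes (0.0542%), 12 higher (0.0501%) and 1 lower (0.00417%), over 3 and 7 libraries that the KO comparison does not share. All WT FGF21 animals had 4-digit numbers, and among WT vehicle animals only that of library 7 did. Treatment therefore largely went with the number series of the animals in WT, and the WT values below share this limit. The series was uneven in KO too, where FGF21 libraries 1 to 4 and vehicle library 1 had 3-digit numbers. With the series as a covariate, edgeR called 0 genes in KO liver with all libraries and 31 without library 3. Of the 61 genes called in KO liver without library 3, 45 had the same sign in WT liver. The share of all genes with the same sign was not counted, so this number has no base to be read against. Klhdc7a had a log2 fold change of -0.50 ± 0.22 in WT, Sorbs3 0.29 ± 0.23, Cyp27a1 0.18 ± 0.19 and Hebp2 -0.45 ± 0.67. None of these passed the test in WT. The fibrosis list had a median of 0.04 in WT, the mitosis list 0.26, the interferon list -0.05, the sterol list -0.10 and the amino acid list 0.14. WT FGF21 library 3 had a slope on transcript length of -0.289 and 7.45% of its counts on mitochondrial genes, a pattern like that of KO FGF21 library 7. The other WT FGF21 libraries had slopes of 0.128 and -0.0406 and 4.73% and 4.77%. The part of that library in the WT medians was not tested. A test of the difference between genotypes called 1 gene (0.00417%), Rasd1, a glucocorticoid-induced Ras family gene, which was at 0.505 to 1.76 CPM against 0.648 to 2.18 CPM in KO liver, with a log2 fold change of -0.44 ± 0.26, and had 2.38 ± 0.33 in WT liver (edgeR adjusted p of the difference = 0.00679). The number called was 4 without KO FGF21 library 3, 5 without library 7 and 15 without both. At Klhdc7a, Sorbs3, Cyp27a1, Hebp2 and Cux2 the difference between genotypes did not pass, with adjusted p of 0.984 or more. Without WT vehicle library 6, whose Xist level goes against its label, 0 genes were called in KO liver and 26 in WT liver.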

How the data were processed

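Liver RNA was sequenced in 24 libraries, each a separate animal by its label. The authors deposited a table of whole numbers per gene, treated as estimated counts that may have been rounded, since the submitters' processing notes name cutadapt 4.8, FastQC 0.11.8, STAR 2.7.8a, RSEM 1.3.3 and the build GRCm38 without giving their order. The labels call the treatment Rescue, read here as FGF21. Values are CPM after TMM scaling. Genes were located in GENCODE M21 (23926 of 23972).

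One model of the 4 groups was fitted with edgeR 4.0.16 (TMM, quasi-likelihood, robust) in R 4.3.3, on all genes, with Benjamini-Hochberg adjustment over all of them. A call needed an adjusted p under 0.05 and a fold above 1.5. Log2 CPM used a prior count of 2, and lists and overlaps used genes with a mean of at least 0 over the 14 KO libraries. Alternatives were DESeq2 1.42.0, its size factors, filterByExpr, libraries left out, the slope on transcript length or the number series of the animals (3 or 4 digits) as a covariate, and the KO libraries alone. Tested on simulated data of 23972 genes, the fit recovered known changes. The share recovered is not given here, so this test cannot show how many real changes the fit missed in the KO libraries. The lack of calls with all libraries therefore cannot be read as a lack of change. Counting error limits values near the floor of 3 counts, which was 0.124 to 0.176 CPM in the KO libraries.

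The members and the gene lists were chosen with earlier results of these data known. Named genes were the 8 with the smallest p in each direction above the level filter, up to 3 of each list by p, the receptors, Lmna, Ppargc1a and Tgfbr2, the 5 in each direction with the largest fold among genes without overlap, and up to 8 called with library 3, library 7 or both left out. Cux2, Spp1, Ang, Rnase4, Cidea, Cidec, Ftl1, Ftl2-ps, Rasd1, Mcm6, Col1a1, Col27a1 and Cps1 were added after their values were seen. Promoter windows came from RefSeq on GRCm38.p6.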

Additional observations from a re-analysis of the deposited data

Results flagged for a closer look

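Values of the named genes in each KO group were examined for a library far from the rest by Dixon's criterion, which chance meets in about 1 of 20 groups. Of 218 groups of gene values, 45 showed such a library. Many of these genes were named because they were called with library 3 left out, or after their values were seen, so these numbers cannot be read against that chance rate. FGF21 library 3 stood apart in 22 of them, in CPM: Sorbs3 at 19.9, Gne at 107, Cyp27a1 at 217, Izumo4 at 3.23, Klhdc7a at 43.9, Hebp2 at 2.86, Ebp at 116, Igfbp2 at 31.9, Socs2 at 3.19, Igfals at 35.2, Cyp2c29 at 183, Cdc20 at 3.73, Mcm2 at 13.8, Tgfb2 at 1.49, Hpd at 879, Fgb at 2112, Limk1 at 13.7, Akap2 at 22.6, Spp1 at 224, Ang at 40.6, Rnase4 at 280 and Col27a1 at 19.3. FGF21 library 7 stood apart for Ftl1-ps1 at 87.1, Etv5 at 3.29, Spred2 at 6.29, Ndufs8 at 197, Ndufs1 at 65.7, Ndufs7 at 171, mt-Cytb at 27100, mt-Atp6 at 2153, Rpl28 at 550, Rpl8 at 471 and Ftl1 at 7554 CPM, and also for its slope on transcript length of -0.331 and its 9.005% of counts on mitochondrial genes. Vehicle library 4 stood apart for Klb at 32.1, Socs2 at 16.4, Mcm2 at 5.06, Dbf4 at 1.61, Fgfr3 at 16.6 and Akap2 at 12.2 CPM, and vehicle library 6 for Fads1 at 363 and Asns at 2.22 CPM. Among the other FGF21 libraries, library 2 stood apart for Prps2 at 9.71 CPM, library 4 for Cactin at 15.9 and Vnn1 at 118 CPM and library 8 for Zfp3 at 1.21 CPM.

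At Rasd1 the FGF21 effect in KO liver differed from that in WT liver by -2.81 on the log2 scale (edgeR adjusted p = 0.00679). The number of animals in the WT FGF21 group was 3.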

How the results depend on the processing

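The number of genes called in KO liver depended on the libraries and the tool. It was 0 to 61 over the fits that left out a single KO library, 164 without FGF21 libraries 3 and 7, 15 by DESeq2 on all groups, 20 by DESeq2 on the KO libraries and 2 among KO libraries of animals with 4-digit numbers, Klhdc7a and 9030619P08Rik, where the groups held 4 and 5 libraries. DESeq2 size factors, filterByExpr, the number series or the slope on transcript length as a covariate and an adjusted p alone left 0 calls. Settings chosen after seeing the data gave 54 with only the KO libraries and no library 3, 144 without library 3 and with the slope as a covariate, and 31 without library 3 and with the number series as a covariate. Called members of the gene lists numbered 0 to 6 over single libraries left out, 15 without both, 2 by DESeq2 on all groups, 1 by DESeq2 on the KO libraries, and 5, 11 and 3 in those added settings. Beside these stand called shares over all genes of 0.254% without library 3, 0.684% without both, and 0.0626% and 0.0845% by DESeq2. The lists were chosen with earlier results known, so their counts are descriptions. The cause was not tested. Genes without overlap numbered 14 to 134 over single libraries left out and 348 without both. Genes that differed between genotypes numbered 1 to 5 over single KO libraries left out, 15 without both, 6 without WT FGF21 library 3 and KO FGF21 library 7, 3 without WT FGF21 library 3, 2 with DESeq2 size factors, 2 with filterByExpr, 3 with the slope as a covariate, 0 with the number series as a covariate, and, without KO FGF21 library 3, 11 with the slope and 0 with the number series. In WT liver 26 genes were called without WT vehicle library 6.

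Of the gene values under alternatives, 2966 kept their direction and side of the threshold, 158 kept their direction and were newly called and 36 turned direction. Since edgeR called no gene with all libraries, no value could lose a call. Staying uncalled in the same direction counted as kept, so the first number is largely set by that base. The turns were at genes near 0, uncalled except for Ftl2-ps, whose log2 fold change became 1.47 without vehicle libraries 1 and 3. Over single KO libraries left out the log2 fold change ranged from -0.0572 to 0.12 at Fgfr1, -0.043 to 0.0601 at Fgfr2, -0.185 to 0.053 at Fgfr3, -0.0921 to 0.408 at Ppargc1a, -0.00345 to 0.121 at Tgfbr2, -0.0335 to 0.397 at mt-Atp6 and -0.0119 to 0.279 at Ftl1. Among 4-digit animals it was -0.0826 at Fgfr1, -0.0927 at Ppargc1a and -0.0565 at Tgfbr2. Without vehicle libraries 1 and 3 it was -0.00227 at Fgfr1, -0.135 at Ppargc1a and -0.11 at Ftl1. With only the KO libraries and no library 3 it was -0.0586 at Fgfr1, -0.0373 at Fgfr2 and -0.00405 at Tgfbr2. Without library 3 and with the number series as a covariate it was -0.00893 at Fgfr1 and -0.0579 at Fgfr2, and with the slope -0.0267 at Ftl1. Without libraries 3 and 7 it was -0.00545 at Fgfr2, -0.00102 at mt-Atp6 and -0.0165 at Ftl1. Without WT FGF21 library 3 and KO FGF21 library 7 it was 0.0484 at Fgfr3, -0.0394 at mt-Atp6 and -0.019 at Ftl1, and with the number series as a covariate -0.0315 at Fgfr2. List medians stayed within 1 SD of the libraries of a group in 418 of 419 cases. The exception was the ERK feedback list at a mean log2 CPM of at least 3, at 0.18.

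Over single libraries left out, the FGF21 minus vehicle difference ranged from -161655 to 160255 in total counts, -0.055 to 0.00417 in the slope on transcript length and -0.76 to -0.416 in log2 cholangiocyte markers. Without both libraries it was -103002 in total counts and -0.76 in cholangiocyte markers (adjusted p = 0.0422, exact permutation). In counts on mitochondrial genes it was then -0.821 percentage points (adjusted p = 0.0422, exact permutation). Neither p can be read at face value, since the pair was left out with the results known. Each of these measures is extreme in a library of that pair. With all libraries the cholangiocyte difference was -0.55 (adjusted p = 0.53, exact permutation). The mitochondrial difference was -0.287 percentage points with all libraries (adjusted p = 0.786, exact permutation). No paired analysis was possible because replicate numbers were given in accession order and pair no animals. Depth limited genes near the floor of 3 counts.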
